A study of Homo sapiens with 5 samples.

Results

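Cells of the established human monocytic line MonoMac6 were cultured with leukotriene B4 and set against unstimulated cells of the same line, with 1 microarray for each. These are 2 of the 5 arrays of the series and were chosen by their sample titles. Leukotriene B4 was added to the medium at 100 nM for 12 h from a stock in DMSO. The other 3 arrays held cells given leukotriene C4, lipoxin A4 or lipoxin B4 at the same dose and for the same time, and they serve here as a yardstick. The unstimulated array is shared by every comparison against it. The sources used here do not state whether the unstimulated culture received DMSO, or whether the 5 RNA samples came from separate cultures. With 1 array per condition no difference below has a measured error, no test was run, and overlap between groups cannot be judged. Every difference is one between 2 arrays.

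Leukotriene B4 is made from arachidonic acid by 5-lipoxygenase, with the help of its activating protein, and by leukotriene A4 hydrolase. It attracts and activates neutrophils and monocytes through the receptor LTB4R, which signals through inhibitory G proteins, phosphoinositide 3-kinase and mitogen-activated protein kinases. Cells end its action by oxidising it, through cytochromes of the CYP4F family or the reductase PTGR1.

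Most genes lay close together on the 2 arrays. Signals were measured for 15374 genes, each represented by its brightest probe set, which is a group of short probes for 1 transcript. Of these, 9086 had a geometric mean signal over 200 on the 5 arrays and are called bright. Between leukotriene B4 and unstimulated cells, 105 bright genes were at least 1.5-fold higher (1.16%) and 175 at least 1.5-fold lower (1.93%). The median log2 difference of bright genes was 0.04, with 58.1% above 0 and 41.9% below. Over all measured genes, 110 were at least 2-fold higher (0.715%) and 270 at least 2-fold lower (1.76%), and these include many dim genes. That count depends on the floor set for low signals: it was 921 and 1500 with a floor at the 30th percentile and 3 and 17 with one at the 70th.

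**Figure D1:**
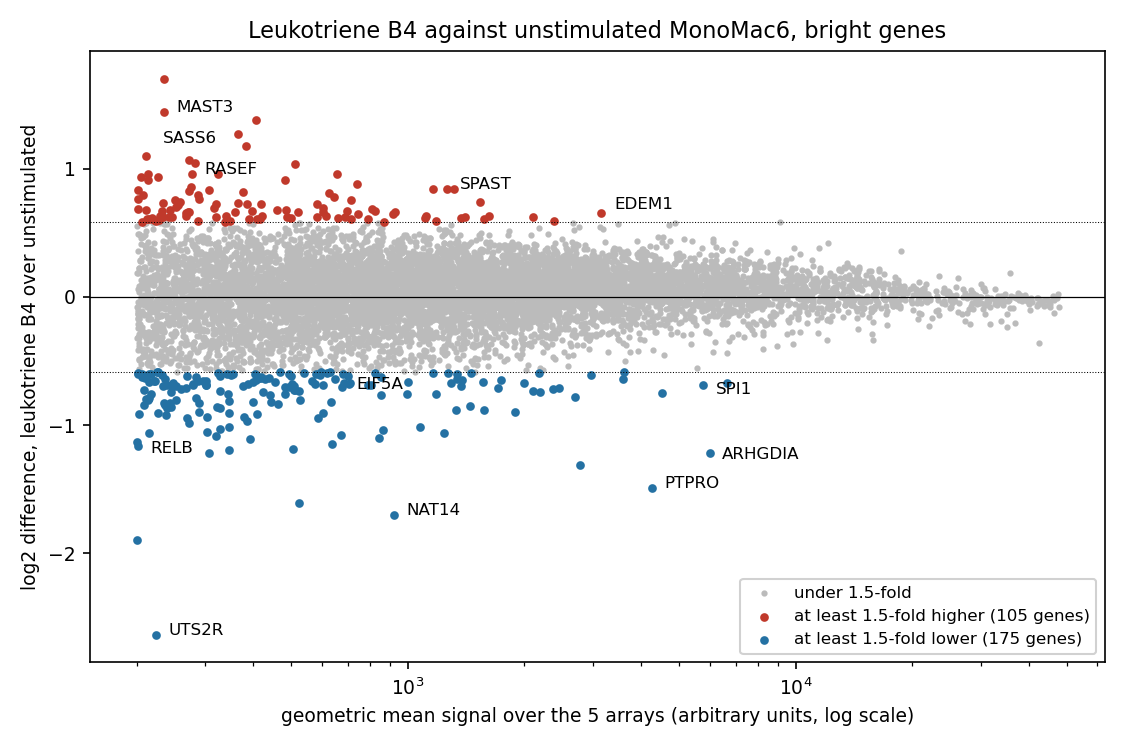
Log2 difference of leukotriene B4 over unstimulated cells (vertical axis) against geometric mean signal over the 5 arrays (horizontal axis, log scale) for 9086 bright genes, 1 point per gene. Red points are the 105 genes at least 1.5-fold higher and blue points the 175 at least 1.5-fold lower; dotted lines mark 1.5-fold, and only 3 red and 15 blue points lie above a signal of 2000.

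The differences grew smaller with brightness, as the plot of difference against signal shows. Between signals of 200 and 500, 68 of 1989 genes were higher and 102 lower. Between 500 and 2000 there were 34 and 58 of 3968 genes, and above 2000 only 3 and 15 of 3129. The 3 other stimulated arrays give a measure of how far 2 arrays lie apart. In the dimmest of these 3 classes, 8.55% of genes were 1.5-fold apart between leukotriene B4 and unstimulated cells, against 5.97% on average between pairs of the other 3. In the middle class the shares were 2.32% and 1.28%, and in the brightest 0.575% and 0.65%. Above a signal of 2000, leukotriene B4 thus lay no farther from unstimulated cells than the other stimulated arrays lay from each other. The other eicosanoids, set against the same unstimulated array, had 158 bright genes higher and 156 lower for leukotriene C4, 84 and 101 for lipoxin A4, and 158 and 191 for lipoxin B4.

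The receptor LTB4R (chromosome 14) had signals of 687 with leukotriene B4, 703 with leukotriene C4, 689 with lipoxin A4, 651 with lipoxin B4 and 905 in unstimulated cells on its brightest probe set. The unstimulated array was the highest and the 4 stimulated arrays lay close together, so the log2 difference of -0.40 with leukotriene B4 stood beside -0.36, -0.39 and -0.47 with the other compounds. Its other probe sets had 531 with leukotriene B4 against 603 in unstimulated cells, and 416 against 415, so the 3 probe sets did not give 1 answer. The lower-affinity receptor LTB4R2 had no probe set with a single gene symbol here, and the nuclear receptor PPARA, which also binds leukotriene B4, was dim, at 174 with leukotriene B4 and 214 in unstimulated cells.

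Of the 18 listed genes for synthesis, breakdown and export of leukotriene B4, 15 were measured and 10 were bright. None of the 10 was 1.5-fold apart, where 3.08% of all bright genes were; 6 lay above 0 and 4 below, with a median of 0.06. PLA2G4A, the phospholipase that releases arachidonic acid, had 2110 with leukotriene B4 and 1869 in unstimulated cells. ALOX5AP, the 5-lipoxygenase activating protein, had 33321 and 34319, and LTA4H, the leukotriene A4 hydrolase, had 3772 and 3681. These 3 genes differed by log2 values of 0.17, -0.04 and 0.04. ALOX5 itself was dim (119 with leukotriene B4 and 143 in unstimulated cells). The largest difference among the 10 bright genes was in COTL1, an actin-binding protein that also binds 5-lipoxygenase, at -0.53, but another of its probe sets gave 0.36.

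The bright genes of breakdown and export were likewise close on their brightest probe sets. PTGR1, a reductase that inactivates leukotriene B4, had 2692 with leukotriene B4 and 2555 in unstimulated cells (log2 0.08), and its other 2 probe sets gave -0.34 and -0.14. PTGR2, another listed reductase, fell short of bright, at 216 with leukotriene B4 and 156 in unstimulated cells (0.47). Its difference was -0.03 with leukotriene C4, 0.56 with lipoxin A4 and 0.72 with lipoxin B4. ABCC4, a transporter that can export leukotriene B4, had 0.28, with 0.04 and -0.06 on its other measured probe sets. The 2 probe sets of ABCC1 gave 0.21 and -0.22. The glutathione transferase MGST2, which can make leukotriene C4, had -0.03. CYP4F3, CYP4F11 and CYP4F22 lay under the floor on every array, and CYP4F2 lay at the floor on both arrays compared. CYP4F12 was at the floor of 48.7 with leukotriene B4 and with the other 3 compounds, and at 71.5 in unstimulated cells. LTC4S, the leukotriene C4 synthase, was dim but stood apart in order. Its signal was 144 with leukotriene B4, 228 with leukotriene C4, 223 with lipoxin A4, 231 with lipoxin B4 and 177 in unstimulated cells. The leukotriene B4 array was the lowest of the 5 and the other 3 stimulated arrays were above the unstimulated one.

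Downstream of the receptor, 28 of the 33 listed genes of G proteins, receptor kinases, arrestins and the kinase relay were bright. None was 1.5-fold higher and 1 was lower, with a median of -0.03, where 1.16% and 1.93% of all bright genes were higher and lower. The lower gene was GRK6, a kinase that phosphorylates activated receptors and ends their signalling. Its brightest probe set had 915 with leukotriene B4, 1177 with leukotriene C4, 1121 with lipoxin A4, 1257 with lipoxin B4 and 1381 in unstimulated cells. The leukotriene B4 array was the lowest of the 5, and a second probe set gave 813 with leukotriene B4 and 1373 in unstimulated cells, while the other 2 gave log2 differences of -0.17 and 0.05. Short of 1.5-fold, the kinase MAP2K2 had 5544 with leukotriene B4, 6557 to 6888 on the other stimulated arrays and 7508 in unstimulated cells. Its second probe set gave -0.41, beside -0.44 on the first, so the leukotriene B4 array was the lowest on both. The inhibitory G protein subunit GNAI2 had -0.33 and the receptor kinase GRK2 -0.34. The subunit GNG2 had 0.49 on its brightest probe set, but its other probe sets gave -0.21, 0.05 and -0.27.

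Of the genes that activated monocytes usually raise, few lay far apart at 12 h. None of the 10 bright cytokines, 5 bright chemokines, 9 bright chemoattractant receptors or 29 bright genes of adhesion and migration was 1.5-fold apart, where 3.08% of all bright genes were, so a count of 0 is near that share. Their medians were -0.06, 0.07, -0.01 and -0.05, beside 0.04 for all bright genes. TNF had 639 with leukotriene B4 and 559 in unstimulated cells (log2 0.19), and IL1B, another early cytokine, had 1144 and 1020 (0.17). The neutrophil attractant CXCL8 had 896 on both arrays, and the monocyte attractant CCL2 had 727 and 769. CCL23, an attractant of monocytes and resting T cells, had 741 and 533 on its brightest probe set (0.48). It was at 0.43 to 0.60 on the other stimulated arrays too, and its second probe set gave 290 with leukotriene B4 and 299 in unstimulated cells. The immediate early factor FOS had 4224 and 3315 (0.35), and the signalling phosphatase DUSP2, a negative regulator of mitogen-activated protein kinases, had 211 and 299 (-0.50).

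Among the 22 bright NF-kappaB subunits and targets, 1 gene was higher, 1 lower, and the median was 0.02, where 3.08% of all bright genes were 1.5-fold apart. RELB, the subunit of the alternative NF-kappaB pathway, had signals of 125 with leukotriene B4, 200 with leukotriene C4, 232 with lipoxin A4, 203 with lipoxin B4 and 281 in unstimulated cells. The leukotriene B4 array was the lowest by 0.67 on the log2 scale from its neighbour, and the gene has 1 probe set. The other subunits did not share this. REL had a log2 difference of 0.32, NFKB1 0.14, NFKB2 0.07 and RELA -0.09. SOD2, the mitochondrial superoxide dismutase and an NF-kappaB target, was the higher one, at 432 with leukotriene B4, 447 with leukotriene C4, 350 with lipoxin A4, 539 with lipoxin B4 and 272 in unstimulated cells. All 4 stimulated arrays were above the unstimulated one, and leukotriene B4 was in the middle of them.

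**Figure D2:**
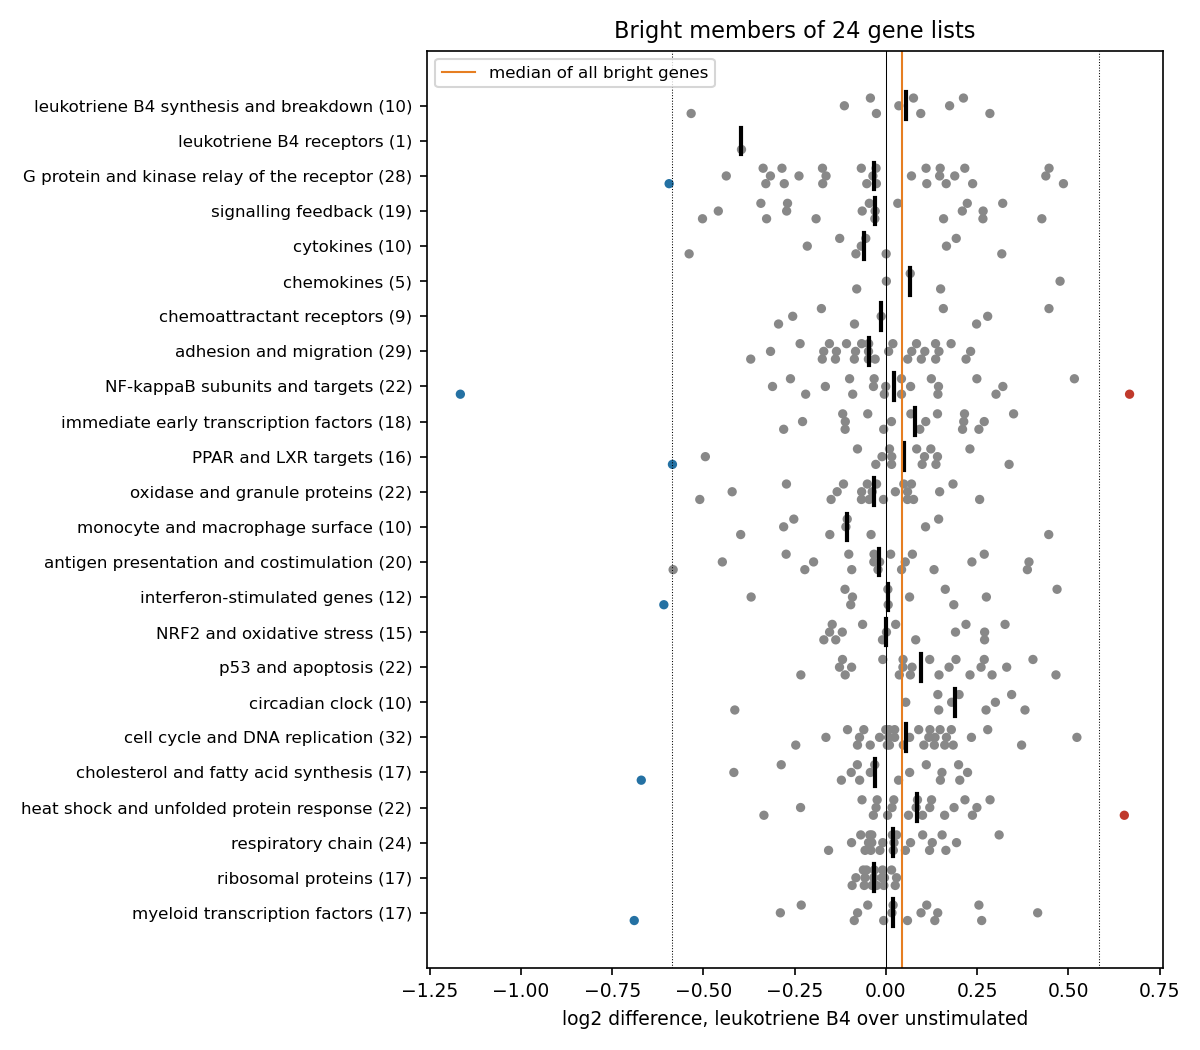
Log2 difference of leukotriene B4 over unstimulated cells (horizontal axis) for the bright members of 24 gene lists (rows; number of bright members in brackets), 1 point per gene, with the list's median as a black bar and the median of all bright genes (0.04) as an orange line. Points past the dotted 1.5-fold lines are red where higher and blue where lower; most lists have none.

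Across the 24 lists, single members rather than whole lists crossed 1.5-fold, as the plot of gene lists shows. Over all bright genes, 3.08% were 1.5-fold apart. Of the myeloid transcription factors, SPI1 (PU.1), the factor that directs monocyte development, was lower. It had 4629 with leukotriene B4, 5689 with leukotriene C4, 6152 with lipoxin A4, 5315 with lipoxin B4 and 7467 in unstimulated cells. The unstimulated array was the highest and leukotriene B4 the lowest. CEBPA, its partner in myeloid cells, had a difference of -0.29, CEBPB had -0.01, and the median of the 17 bright genes of the list was 0.02. FASN, the fatty acid synthase, was lower at 5695 with leukotriene B4, 6461 with leukotriene C4, 7370 with lipoxin A4, 5268 with lipoxin B4 and 9064 in unstimulated cells. Lipoxin B4 was lower still, and the dim second probe set of FASN gave -0.97. SREBF2, which drives sterol synthesis, was at -0.42 and SREBF1, which drives FASN, at -0.49, both short of 1.5-fold. The median of the 17 bright genes of cholesterol and fatty acid synthesis was -0.03.

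Of the 22 bright members of the heat shock and unfolded protein list, 1 was past 1.5-fold, where 3.08% of all bright genes were. This was EDEM1, which hands misfolded glycoproteins of the endoplasmic reticulum to degradation. It had 4222 with leukotriene B4, 3098 with leukotriene C4, 2906 with lipoxin A4, 3082 with lipoxin B4 and 2685 in unstimulated cells. The leukotriene B4 array was the highest and the other 3 lay between it and the unstimulated array. Other genes of this response were mixed. HSPA5, the main chaperone of the endoplasmic reticulum, had -0.02 on its brightest probe set and 0.35 on its second. HSP90B1 had 0.25 and 1.015 in the same order, and CALR had -0.33 and -0.69. XBP1 had 0.09 and DDIT3 had -0.23. TRIM22, an interferon-induced antiviral protein, was lower at 508 with leukotriene B4 and 774 in unstimulated cells, with 548 to 593 on the other arrays, and ISG15, another interferon-induced gene, had 0.19. LPCAT3, a phospholipid-remodelling target of LXR, gave -0.59 on 1 probe set and 0.93 on the other and is left without a direction.

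Some lists leaned one way with no member past 1.5-fold. Of 17 bright ribosomal protein genes, 14 lay below 0, within a range of -0.09 to 0.03. The list's median was -0.03 with leukotriene B4, 0.12 with leukotriene C4, -0.08 with lipoxin A4 and -0.39 with lipoxin B4. Of 10 bright circadian clock genes, 9 lay above 0, with a median of 0.19, and the medians on the other stimulated arrays were 0.24, 0.19 and 0.22. Of 22 bright p53 and apoptosis genes, 16 lay above 0 (median 0.10), with PMAIP1, a pro-apoptotic protein, at 0.47. Of 32 bright cell cycle genes, 23 lay above 0 (median 0.06, beside 0.09, 0.04 and 0.04 with the other compounds in that order). E2F1 was at 0.52 on its brightest probe set and -0.12 on its second. Of 10 bright surface molecules of monocytes and macrophages, 7 lay below 0, with a median of -0.11. CSF1R, the receptor of macrophage colony-stimulating factor, had 235 with leukotriene B4 and 310 in unstimulated cells, and CD14 had 188 and 225. Against these counts, 58.1% of all bright genes lay above 0.

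Several of the genes highest over unstimulated cells with leukotriene B4 had high signals with the other eicosanoids as well, against the same unstimulated array. MAST3, a microtubule-associated kinase, had 370 with leukotriene B4, 268 with leukotriene C4, 249 with lipoxin A4, 215 with lipoxin B4 and 136 in unstimulated cells. SASS6, which builds the centriole's cartwheel, had 553, 324, 329 and 485 in the same order of compounds, and 229 in unstimulated cells. For both genes the leukotriene B4 array was the highest and the unstimulated array the lowest. SPAST, a microtubule-severing enzyme, had 1491 with leukotriene B4, 1359 to 1401 with the other compounds and 832 in unstimulated cells, so it hardly separated the 4 compounds. CASTOR2, a homologue of an arginine sensor of mTORC1, had 439 with leukotriene B4, 499 to 593 with the other compounds and 169 in unstimulated cells. The largest log2 difference, 1.71, was in UBBP2, a ubiquitin pseudogene whose sequence resembles its parent genes, so its value is uncertain.

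PLEKHA5, a membrane-binding adaptor, had 323 with leukotriene B4, 176 to 265 with the other compounds and 166 in unstimulated cells. The 6 remaining named genes were the endocytic receptor LRP12, the mTOR inhibitor DEPTOR, the centrosomal protein LRRCC1, N4BP2, the SUMO protease SENP7 and RASEF, with differences between 0.86 and 0.96.

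The lower genes were somewhat brighter, with a median signal of 419 against 366 for the higher genes, and reached farther. PTPRO, a receptor-type tyrosine phosphatase, had 2427 with leukotriene B4, 4609 with leukotriene C4, 5485 with lipoxin A4, 3327 with lipoxin B4 and 6823 in unstimulated cells. The unstimulated array was the highest and leukotriene B4 the lowest, with the other compounds between them, and the log2 difference was -1.49. ARHGDIA had 4159 with leukotriene B4, 5368 with leukotriene C4, 7224 with lipoxin A4, 4988 with lipoxin B4 and 9668 in unstimulated cells. Its 4 probe sets gave log2 differences of -1.22, -0.54, -0.56 and -1.18, and the unstimulated array was the highest on each. NAT14, a putative acetyltransferase (chromosome 19), had 551 with leukotriene B4, 693 to 1360 with the other compounds and 1796 in unstimulated cells. SOX12, a transcription factor of the SRY-box family, had 315, 450 to 596 and 963. RAB11B, a GTPase of recycling endosomes, had 451, 523 to 802 and 1001. In each of these 3 the leukotriene B4 array was the lowest and the unstimulated array the highest on the brightest probe set. On the second probe sets of SOX12, which was dim, and RAB11B, leukotriene B4 was instead the highest of the 4 stimulated arrays, at 74.1 and 358, with 87.4 and 425 in unstimulated cells. ATN1, a nuclear co-repressor, had 260 with leukotriene B4, 226 to 399 with the other compounds and 594 in unstimulated cells, and all 4 of its probe sets were below 0. MROH6 (103 against 383) and ZNF579 (209 against 487) were also lowest with leukotriene B4. ANXA2P2 is a processed pseudogene that shares sequence with ANXA2, so its difference of -1.31 is uncertain.

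**Figure D3:**
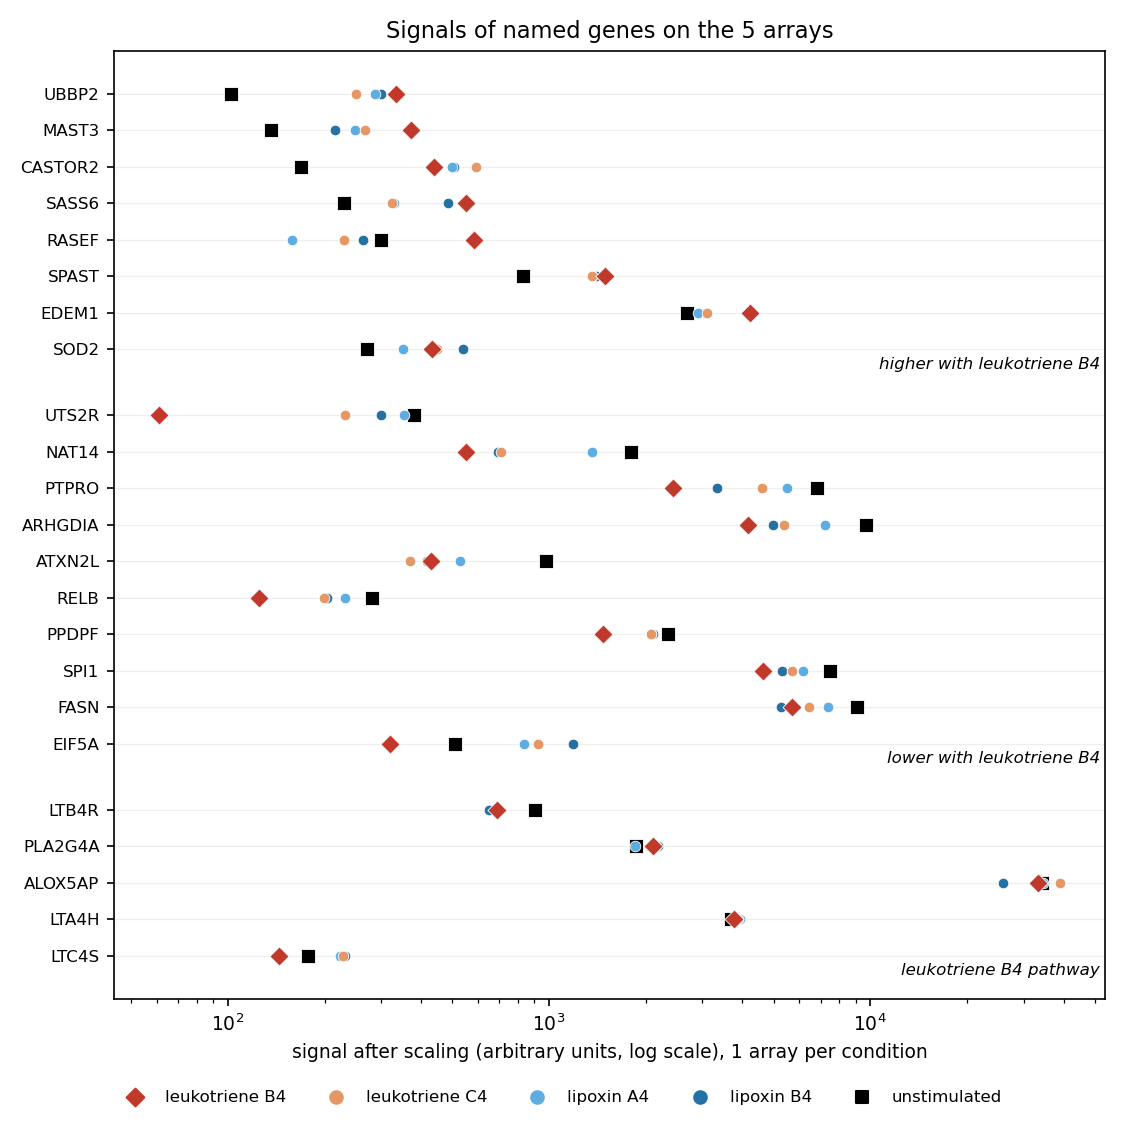
Signals after scaling (horizontal axis, log scale) of 23 named genes (rows) on the 5 arrays, 1 point per array, with leukotriene B4 as red diamonds and unstimulated cells as black squares. In most higher and lower genes the other eicosanoids lie between the 2, whereas RASEF and EIF5A have leukotriene B4 and the other 3 compounds on opposite sides of the unstimulated array.

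For a gene with several bright probe sets, each gives its own reading of the same difference. Among 4133 genes with at least 2 bright probe sets, 0 were at least 1.5-fold higher on all of them (0%) and 6 at least 1.5-fold lower on all (0.145%). The 6 were ATXN2L, a protein of stress granules, DUS2, an enzyme that modifies transfer RNA, KLF16, a transcription factor that binds GC-rich sequence, GSK3A, a kinase of glycogen and Wnt signalling, PPDPF, and the microtubule-binding protein EML3. ATXN2L had 427 with leukotriene B4, 368 with leukotriene C4, 527 with lipoxin A4, 417 with lipoxin B4 and 975 in unstimulated cells on its brightest probe set. All 4 stimulated arrays were well below the unstimulated one, and the second probe set gave 243 with leukotriene B4 and 629 in unstimulated cells. KLF16 had 411 with leukotriene B4, 716 with leukotriene C4, 615 with lipoxin A4, 580 with lipoxin B4 and 769 in unstimulated cells, and GSK3A had 678, 739, 1002, 792 and 1149 in the same order. In both, leukotriene B4 was the lowest and unstimulated cells the highest on this probe set. On the second probe set of GSK3A, lipoxin A4 had 129, below leukotriene B4 at 330, and unstimulated cells had 621. PPDPF, known in zebrafish from pancreas development, had 1469 with leukotriene B4, 2074 to 2106 with the other compounds and 2344 in unstimulated cells. Its 3 probe sets gave log2 differences of -0.67, -0.69 and -1.23, and the leukotriene B4 array was the lowest on each.

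The promoters of KLF16, PPDPF and EML3 are shown because they are the 3 of these 6 genes whose window holds the GC box GGGGCGGGG, which members of the Sp and KLF families bind. Each run is 250 bases before to 50 after the annotated start of the gene, on the gene's strand, from RefSeq (GRCh38.p14), with each GC box on either strand in capitals. KLF16 lies on the minus strand at chr19:1863530-1863829, PPDPF on the plus strand at chr20:63520491-63520790 and EML3 on the minus strand at chr11:62612726-62613025.
KLF16: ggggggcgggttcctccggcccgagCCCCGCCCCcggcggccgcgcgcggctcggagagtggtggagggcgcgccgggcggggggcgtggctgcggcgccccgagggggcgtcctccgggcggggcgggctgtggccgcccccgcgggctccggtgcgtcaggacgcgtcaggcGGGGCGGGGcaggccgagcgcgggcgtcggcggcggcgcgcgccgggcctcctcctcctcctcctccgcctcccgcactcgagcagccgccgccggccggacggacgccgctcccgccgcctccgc
PPDPF: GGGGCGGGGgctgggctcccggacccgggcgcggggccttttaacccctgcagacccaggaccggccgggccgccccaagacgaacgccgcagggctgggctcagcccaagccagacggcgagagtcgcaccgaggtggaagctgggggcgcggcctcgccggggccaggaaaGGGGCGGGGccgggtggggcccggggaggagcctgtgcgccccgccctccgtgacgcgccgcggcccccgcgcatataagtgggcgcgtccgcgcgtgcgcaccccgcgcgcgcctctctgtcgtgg
EML3: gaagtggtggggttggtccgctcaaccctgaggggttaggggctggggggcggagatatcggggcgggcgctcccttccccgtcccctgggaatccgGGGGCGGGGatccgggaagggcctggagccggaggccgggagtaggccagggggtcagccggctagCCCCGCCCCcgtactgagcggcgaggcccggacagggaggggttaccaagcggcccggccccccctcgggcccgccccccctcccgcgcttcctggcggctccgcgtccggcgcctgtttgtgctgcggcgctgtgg

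Each of the 3 windows holds 2 GC boxes. Over the windows with sequence, a GC box was in 54 of 143 lower genes (37.8%), 22 of 84 higher genes (26.2%) and 2142 of 7633 bright genes (28.1%). The lower genes' windows were also richer in G and C, with a median of 68.7%, against 67.2% for the higher and 65.3% for all bright genes, and how far base composition sets the count was not tested. The NF-kappaB motif, GGG and TTTCC with any 2 bases between, was in 2.10% of lower, 1.19% of higher and 2.20% of all windows. The AP-1 motif TGANTCA was in 2.80%, 1.19% and 3.98%. The PU.1 motif GAGGAAGT was in 3.50%, 1.19% and 2.71%. These are matches of letters on both strands and not sites of binding.

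The brightest probe set of a gene often stood alone. Of the 31 genes called higher that had a second bright probe set, 15 were above 0 on it and 1 was at least 1.5-fold higher, and their median log2 difference was 0.67 on the brightest and -0.00 on the second. Of the 40 called lower, 29 were below 0 on the second and 8 at least 1.5-fold lower, with medians of -0.72 and -0.25. Over all 4133 genes, 57.8% of second probe sets lay above 0 and 42.2% below, 1.98% were 1.5-fold higher and 2.86% lower. Pearson's r between the 2 probe sets was 0.27 and Spearman's rank correlation 0.27 across these genes, which share both arrays. The higher genes' second probe sets were thus near 0 in the median, as the plot of probe set pairs shows, and the lower genes' were not.

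**Figure D4:**
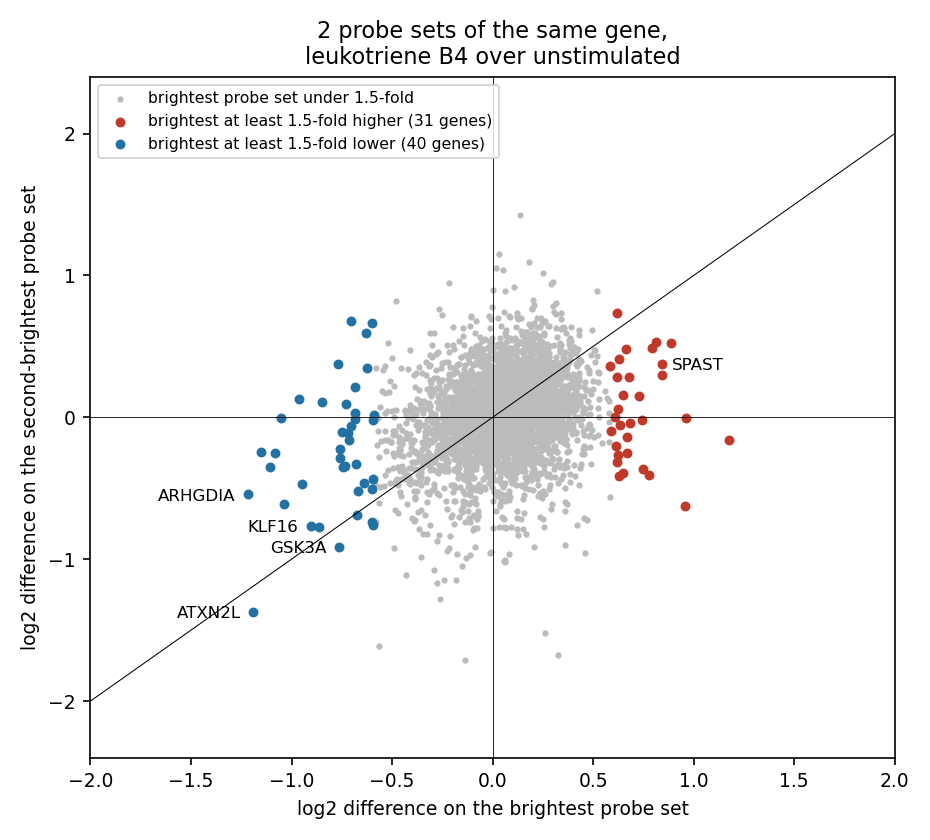
Log2 difference of leukotriene B4 over unstimulated cells on the second-brightest probe set (vertical axis) against the brightest (horizontal axis) for 4133 genes with at least 2 bright probe sets, 1 point per gene; the diagonal marks equal values. The 31 genes higher on the brightest probe set (red) spread around 0 on the second, and 29 of the 40 lower genes (blue) lie below 0 on it.

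Set against all 4 other arrays, few genes stood apart with leukotriene B4. At 1.5-fold, 1 bright gene was above all 4 (0.011%) and 7 were below all 4 (0.077%). The counts above and below were 11 and 13 for leukotriene C4, 2 and 9 for lipoxin A4, 4 and 5 for lipoxin B4, and 15 and 14 for the unstimulated array. The leukotriene B4 counts were 5 and 36 when genes over a signal of 100 were used, and 0 and 1 over 500. Against the median of the other 3 stimulated arrays, leukotriene B4 was 1.5-fold higher in 35 genes (0.385%) and lower in 56 (0.616%).

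The gene above all 4 was RASEF (chromosome 9), a Rab GTPase with calcium-binding domains. It had 582 with leukotriene B4, 230 with leukotriene C4, 159 with lipoxin A4, 263 with lipoxin B4 and 299 in unstimulated cells. Leukotriene B4 was the highest and the other 3 compounds lay below unstimulated cells, but its second probe set had 273 both with leukotriene B4 and in unstimulated cells, and the remaining one lay at the floor on both. With smaller gaps, ZNF451, a SUMO ligase, had 1205 with leukotriene B4, 746 to 845 with the other compounds and 803 in unstimulated cells. Its 4 probe sets gave log2 differences over unstimulated cells between 0.36 and 0.80, and leukotriene B4 was the highest on each. On the second probe set, however, leukotriene B4 (866) hardly differed from lipoxin B4 (861). On a dimmer one it had 139, close to leukotriene C4 at 132. SLC25A17, a peroxisomal transporter of cofactors, had 811 with leukotriene B4, 567 to 617 with the other compounds and 523 in unstimulated cells. Its second probe set gave a log2 difference of 0.73. The SUMO protease SENP1 had 529, 315 to 395 and 355, but on its second probe set leukotriene B4 (310) lay below leukotriene C4 (356), with 286 in unstimulated cells.

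The 7 genes below all 4 arrays were UTS2R, TSC22D4, EIF5A, RELB, TMEM105, TNFSF9 and ZNF552. UTS2R, the urotensin receptor, had 61.1 with leukotriene B4, 231 with leukotriene C4, 354 with lipoxin A4, 299 with lipoxin B4 and 380 in unstimulated cells. It was 6.22-fold lower than in unstimulated cells, on 1 probe set and with the leukotriene B4 signal close to the floor of 48.7. EIF5A, a translation elongation factor that carries the amino acid hypusine, had 320 with leukotriene B4, 926 with leukotriene C4, 834 with lipoxin A4, 1186 with lipoxin B4 and 510 in unstimulated cells. Leukotriene B4 was the lowest, and the other 3 compounds lay above unstimulated cells. Its second probe set had 318 with leukotriene B4, 454 to 636 with the other compounds and 455 in unstimulated cells. The remaining probe set had 216, 334 to 436 and 274, so the leukotriene B4 array was the lowest on all 3.

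TNFSF9, the ligand of the costimulatory receptor 4-1BB on T cells, had 225 with leukotriene B4, 353 with leukotriene C4, 439 with lipoxin A4, 398 with lipoxin B4 and 341 in unstimulated cells. TSC22D4, a leucine zipper protein, had 126, 202, 242, 237 and 237 in the same order, and its second probe set gave a log2 difference of -0.65. ZNF552 had 220 with leukotriene B4 and 331 to 383 on the other 4 arrays. In all 3 the leukotriene B4 array was the lowest. For TNFSF9 and ZNF552 the other 3 compounds lay above unstimulated cells, and for TSC22D4 the unstimulated array lay among them. CARM1, an arginine methyltransferase that modifies histones, followed with 975 with leukotriene B4, 1425 to 1591 with the other compounds and 1525 in unstimulated cells, a log2 difference of -0.65.

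A stricter reading asks that every bright probe set of a gene puts leukotriene B4 at least 1.2-fold beyond all 4 other arrays; this threshold was chosen after the values were seen. Of 4133 genes, 3 were above (0.0726%) and 3 below (0.0726%). The counts were 5 and 3 for leukotriene C4, 0 and 0 for lipoxin A4, 1 and 22 for lipoxin B4, and 5 and 7 for the unstimulated array. The 3 above were CBR4, a mitochondrial reductase of fatty acid synthesis, the transcription factor RFX7, and CCNL1, a cyclin of RNA splicing. CBR4 had 1160 with leukotriene B4, 892 to 963 with the other compounds and 731 in unstimulated cells, and its second probe set 1037, 561 to 851 and 744. The 3 below were EIF5A, PPDPF and ALYREF, an adaptor of mRNA export. ALYREF had 8004 with leukotriene B4, 9784 to 11048 with the other compounds and 10305 in unstimulated cells, and its second probe set 5196, 6757 to 8176 and 6295. The dim probe sets were not part of this choice: that of CBR4 had 72.5 with leukotriene B4 and 78.4 in unstimulated cells, and those of CCNL1 had 82.6 against 99.7 and 83.6 against 54.1.

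Cathepsin Z, a lysosomal protease (CTSZ), showed the opposite arrangement and was also chosen after its values were seen. It had 2093 with leukotriene B4, 4568 with leukotriene C4, 3440 with lipoxin A4, 3392 with lipoxin B4 and 2009 in unstimulated cells. Leukotriene B4 lay beside unstimulated cells and below the other 3 compounds, by 0.70 on the log2 scale from the nearest. Its second probe set was dim and did not share this arrangement. There leukotriene B4 had 62.6, below leukotriene C4 (106) but above lipoxin A4 (53.2), lipoxin B4 (49.7) and unstimulated cells (48.7). In all, 8 bright genes with leukotriene B4 lay at least 1.5-fold above the other 3 compounds (0.088%) and 15 below (0.165%). The same counts were 18 and 19 for leukotriene C4, 9 and 13 for lipoxin A4, and 4 and 11 for lipoxin B4, so leukotriene B4 lay within their range.

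The genes called lower were not spread evenly over the genome. Chromosome 19 held 37 of the 175 lower genes (21.1%) and 4.81% of the higher ones, against 6.72% of all bright genes with a known position. Of its 610 bright genes, 6.07% were lower, and their median log2 difference was -0.07 with leukotriene B4, 0.04 with leukotriene C4, -0.04 with lipoxin A4 and -0.05 with lipoxin B4. The counts of lower genes on this chromosome were 37, 26, 10 and 36. Chromosome 17 had 23 lower and 3 higher of 535 genes with leukotriene B4, with 13 lower for leukotriene C4, 6 for lipoxin A4 and 24 for lipoxin B4. Against the median of the other 3 compounds the chromosome 19 genes had a median of -0.06, beside -0.02 for all bright genes.

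Gene size moved with the difference as well. The genomic span from start to end of the gene had a median of 19.7 kb in the lower genes, 52.9 kb in the higher and 29.96 kb in all bright genes. Over deciles of span, the median log2 difference was -0.02 in the shortest genes (median span 3.22 kb) and 0.12 in the longest (208 kb). On the same deciles lipoxin A4 and lipoxin B4 each had -0.02 in the shortest and 0.06 in the longest genes, with their highest medians, 0.09 and 0.10, in decile 8. Leukotriene C4 had 0.11 in the shortest genes and 0.08 in the longest. Against the median of the other 3 compounds, leukotriene B4 had -0.04 in the shortest and 0.03 in the longest. After each difference was centred on the median of its decile, which was added after seeing the data, there were 71 higher and 198 lower genes, and 26.4% of the called genes were higher, against 37.5% before. This centring also takes out the overall median of 0.04, and the values as deposited, whose median was 0.01, gave 29.0% with no centring by span.

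**Figure D5:**
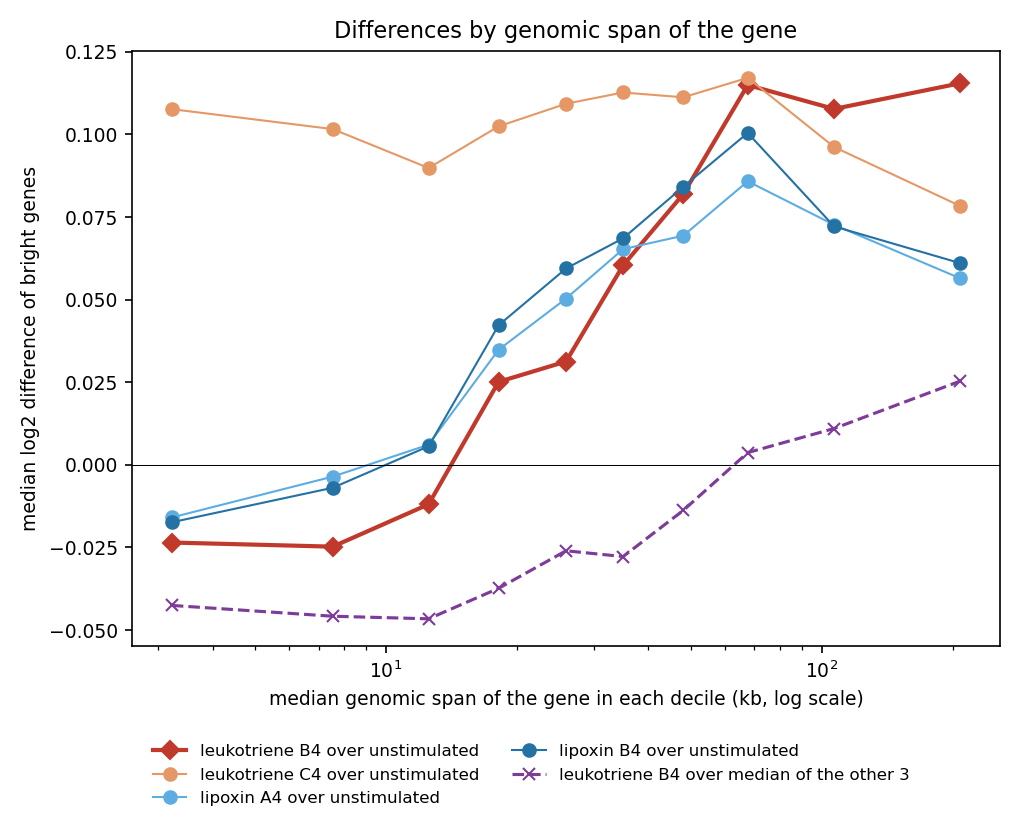
Median log2 difference of bright genes (vertical axis) in 10 deciles of the gene's genomic span (horizontal axis, kb, log scale), for each compound over unstimulated cells and, dashed, for leukotriene B4 over the median of the other 3 compounds. With leukotriene B4 the median is -0.02 in the shortest and 0.12 in the longest genes, and with leukotriene C4 the medians lie between 0.08 and 0.12.

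Quality measures moved with these arrays too. Ribosomal RNA has control probe sets of its own on the array, and these were brighter with leukotriene B4. The middle 18S probe set had 913 with leukotriene B4, 3073 with leukotriene C4, 365 with lipoxin A4, 1056 with lipoxin B4 and 186 in unstimulated cells. The ratio of 3' to 5' probe sets, a sign of RNA integrity, was 0.996 with leukotriene B4 and 1.03 in unstimulated cells for GAPDH, and 1.10 and 1.13 for ACTB. The part of ribosomal RNA in the differences above was not tested. Of 10 monocytic markers, 7 were measured and 5 were bright. Of these 5, 4 lay below 0 and SPI1 alone was past 1.5-fold, where 41.9% and 3.08% of all bright genes were. Counts over 5 genes are too small to be read against these shares. The median of the 5 was -0.25 with leukotriene B4, -0.00 with leukotriene C4, -0.03 with lipoxin A4 and -0.44 with lipoxin B4. LYZ, the lysozyme of myeloid cells, had 47387 with leukotriene B4 and 49095 in unstimulated cells, and MNDA, a nuclear antigen of myeloid cells, had 13962 and 12576. ITGAM was dim (127 and 160), and no T or B cell marker was bright. Some markers of other lineages were bright. The erythroid marker EPOR had 729 with leukotriene B4 and 794 in unstimulated cells. CSF3R, of the mature neutrophil list, had 1000 and 1039, and the epithelial marker KRT18 had 675 and 843. PECAM1, listed as an endothelial marker but also made by monocytes, had 5138 with leukotriene B4 and 4646 in unstimulated cells. It was 1 of 2 bright members of the fibroblast and endothelium list.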

How the data were processed

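The authors processed the arrays with GCOS 1.4, per the submitters' processing notes, and deposited 1 intensity per probe set on a linear scale. Neither the signal algorithm nor its settings are stated. Trimmed of 2% at each end, the mean intensity over all probe sets, controls included, was 500.1 on each array as deposited. Of 54675 probe sets, 62 are controls and were left out of the scaling and of the measured genes. Genes were named from the platform annotation where a probe set had 1 symbol (41097 probe sets; 1801 had several and 11777 are not listed), and 41043 of them were found by gene identifier in RefSeq's gene table (GRCh38.p14).

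Signals were scaled by 1 factor per array (equal median of the upper 50% of probe sets), raised to a floor at the 50th percentile of mean log2 signal (48.7), and compared as log2. A gene was its brightest measured probe set, and bright meant a geometric mean over 200. Calls were made at 1.5-fold for bright genes and 2-fold for all measured genes. With 1 array per condition, no test, standard error or depth-based interval is possible; the number of arrays limits the precision. The counting was run on simulated data built from the stimulated arrays, with the same fold planted on every probe set of a gene. That run checks the counting and gives no error rate for the differences reported here. Python 3.11.15, numpy 2.4.6, pandas 2.3.3 and matplotlib 3.10.9 were used.

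Named were up to 12 bright genes each way by difference, up to 12 each way whose bright probe sets were all 1.5-fold apart, and up to 10 each way by the gap to the nearest other array. Up to 4 bright members of each of 24 lists at 1.5-fold, and all measured genes of leukotriene B4 synthesis, breakdown and reception, were added. In the ranking by difference and by gap, no other probe set could oppose the gene by over 0.1 log2. Other list members are given as examples, chosen after their values were seen, as are genes said to be so in the text. The members, lists and rules were chosen with earlier results of these data known. Quantile normalization, the values as deposited, floors at the 30th and 70th percentiles, the mean of all probe sets, and brightness limits of 100 and 500 were tried as alternatives.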

Additional observations from a re-analysis of the deposited data

Results flagged for a closer look

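The 18S ribosomal RNA middle control probe set, which enters no comparison, was 4.90-fold brighter with leukotriene B4 than in unstimulated cells, and the 28S middle control probe set 2.17-fold. Both were brighter still with leukotriene C4. The ribosomal RNA gene RNA45SN5 has probe sets outside the controls and is among the 105 bright genes called higher. It had 858 with leukotriene B4 and 441 in unstimulated cells (log2 0.96), but its other probe set gave -1.03. It was chosen after its values were seen.

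In 4 named genes past 1.5-fold, leukotriene B4 lay on one side of unstimulated cells and the other 3 eicosanoids on the opposite side; the difference between compounds was not tested, since each has 1 array. The log2 difference of leukotriene B4 over unstimulated cells was 0.96 for RASEF, where the others gave -0.38, -0.92 and -0.19 for leukotriene C4, lipoxin A4 and lipoxin B4. It was -0.67 for EIF5A, with 0.86, 0.71 and 1.22 on those arrays. It was -0.60 for TNFSF9, with 0.05, 0.37 and 0.23, and -0.59 for ZNF552, with 0.15, 0.08 and 0.21. The other 2 probe sets of EIF5A also had leukotriene B4 as the lowest array, those of RASEF gave 0.00, and TNFSF9 and ZNF552 have 1 probe set each.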

How the results depend on the processing

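No paired analysis was possible because each group holds 1 array, and leaving out an array was not possible for the same reason. Of 58 recounts under alternatives, 38 stayed within 1.5 times the reported count. The floor and the brightness limit moved most of the others; the causes were not tested beyond the change in the genes counted. With the floor at the 30th percentile (signal 17.4), 921 measured genes were 2-fold higher and 1500 lower; at the 70th (signal 244), 3 and 17, with 62 bright genes 1.5-fold higher and 1 below all 4 arrays. With genes over a signal of 100, 217 were higher and 343 lower, 3 and 15 on every bright probe set, and 5 above and 36 below all 4 arrays. Over 500, these were 37 and 73, 1 and 2, and 0 and 1. Quantile normalization gave 2 above all 4 arrays and the mean of all probe sets 0. Bright genes higher and lower were 107 and 196 after quantile normalization, 84 and 206 as deposited, and 73 and 133 with the mean of all probe sets. Of 333 values of named genes, 290 moved by less than the spread among the other 3 stimulated arrays, 42 moved by more, and 1 reversed: LPCAT3, to 0.17 with the mean of its probe sets. Of 168 list medians, 154 moved by less than that spread.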

Other observations

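The receptor OXER1, which binds another product of the 5-lipoxygenase pathway, 5-oxo-ETE, was not in the lists and was chosen after its values were seen. It had 316 with leukotriene B4, 328 with leukotriene C4, 326 with lipoxin A4, 326 with lipoxin B4 and 186 in unstimulated cells, on 1 probe set. The 4 stimulated arrays lay close together, all above the unstimulated one.

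NOTCH2NLA, a truncated relative of NOTCH2 whose near-identical copies make its signal uncertain, had 916 with leukotriene B4, 370 to 506 with the other compounds and 791 in unstimulated cells. HNRNPL, a splicing regulator, had 1350 with leukotriene B4, 2103 to 2710 with the other compounds and 1722 in unstimulated cells, but its second probe set gave a log2 difference of 0.07. Both were chosen after their values were seen, as genes at least 1.5-fold from all of the other 3 compounds.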
